A study of Mus musculus with 12 samples.

Results

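Fat cells induced from 3T3-L1 cells, an established mouse line of fibroblast-like preadipocytes, were compared with uninduced cells of the same line by single-colour microRNA (miRNA) array. The comparison covers 6 of the 12 arrays of the series: 3 of untreated preadipocytes and 3 of cells induced with MDI. Its members are the mouse miRNAs on the array, of which 157 of 611 were bright enough to be tested. The series' design uses induction as its model of suppressed WNT signalling. MDI is a hormone mixture of a phosphodiesterase inhibitor (3-isobutyl-1-methylxanthine), dexamethasone and insulin. Induced cells were kept in it for 3 days from confluence, then in insulin alone for 2 days and in plain serum-containing medium for 2 days, up to day 7. The labels give no schedule or end day for the preadipocytes, so induction, confluence and time in culture cannot be told apart. The labels name the induced group mature adipocytes, and an array of miRNAs carries none of the messenger RNA markers that would check that name. All cells belong to 1 line. The labels do not say whether the triplicates of a group were grown apart, and the p-values therefore reflect the scatter of these triplicates, possibly technical only. The other 6 arrays were of cells given 25 mM lithium chloride with or without MDI. They entered the estimate of spread, the filter, the choice of probes for scaling, the floor and the choice of the brightest probe.

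A miRNA is a short RNA that guides a silencing complex to messenger RNAs, which are then repressed. Bases 2 to 8 from its 5′ end, the seed, do most of the target pairing, so miRNAs with 1 seed form a family with overlapping targets. Many miRNAs are cut from 1 transcript as a cluster, and each hairpin can give a guide strand and a less abundant passenger strand, marked with a star in the array's names. In fat cell formation, growth-arrested preadipocytes divide again after induction and then switch on PPARG and CEBPA. miRNAs are known to act on both steps: the cluster of miR-17 to miR-92a on the cell cycle, miR-27 on PPARG and let-7 on HMGA2.

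The sequences shown are those that the results turn on, with the seed in capitals, 5′ to 3′, from RefSeq (GRCm38.p6). The first 3 are the miRNAs that fell, followed by miR-10a, which shares the seed of miR-10b.
miR-10b: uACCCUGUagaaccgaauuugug
miR-181a: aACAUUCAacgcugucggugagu
miR-181b: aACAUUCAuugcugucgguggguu
miR-10a: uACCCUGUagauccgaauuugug
The next are the miRNAs that rose, with the other strand of miR-31 and the cluster partners of miR-96.
miR-31*: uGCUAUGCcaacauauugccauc
miR-31: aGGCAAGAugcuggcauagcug
miR-96: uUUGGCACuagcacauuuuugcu
miR-182: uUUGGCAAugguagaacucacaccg
miR-183: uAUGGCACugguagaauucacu
The last are families in which no member passed the test, shown because their members lay on 1 side or split: the AAAGUGC seed of the miR-17 type, the miR-99 family and the pairs of miR-27 and of miR-103 with miR-107.
miR-20a: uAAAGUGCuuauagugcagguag
miR-20b: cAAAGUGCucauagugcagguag
miR-93: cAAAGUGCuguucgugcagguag
miR-106b: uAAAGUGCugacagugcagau
miR-99a: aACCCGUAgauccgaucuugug
miR-100: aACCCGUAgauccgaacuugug
miR-99b: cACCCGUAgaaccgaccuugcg
miR-27a: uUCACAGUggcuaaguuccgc
miR-27b: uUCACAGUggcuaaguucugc
miR-103: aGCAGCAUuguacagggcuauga
miR-107: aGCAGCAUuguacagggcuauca

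Array signals were given as log2 of the background-subtracted intensity relative to the array's own 75th percentile, taken over 181 probes detected on all 12 arrays, with a floor at -4.97. Before scaling, that percentile was 502.6 to 779.7 on the preadipocyte arrays and 264.5 to 382.2 on the MDI arrays. The arrays detected from 126 miRNAs (MDI array 3) to 175 (preadipocyte array 3) each. All 3 preadipocyte arrays and MDI array 1 lay on slide 1 (scan 1), and MDI arrays 2 and 3 on slide 2 (scan 2). Preadipocyte array 3 stood apart: over the tested miRNAs it correlated at r = 0.939 with both others of its group, which correlated at 0.991 with each other, and the MDI arrays correlated at 0.950 to 0.980. The groups did not separate by correlation: preadipocyte array 3 correlated at 0.948 with MDI array 2, and MDI array 1 at 0.953 and 0.955 with preadipocyte arrays 1 and 2, against 0.950 with MDI array 2. Of the defining miRNAs of other cell types, none of 7 for muscle, 7 for blood and immune cells, 1 for liver and 2 for endothelium was detected on the 6 arrays, 1 of 7 for epithelium (miR-205, on preadipocyte array 3 only) and 1 of 5 for neural tissue (miR-128). All 9 listed for mesenchyme and fibroblasts were detected on at least 1 array. Of these, miR-145 lay near the floor and was detected on 2 of 3 preadipocyte and 1 of 3 MDI arrays.

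After MDI, miR-10b and the pair miR-181a and miR-181b fell, and miR-31* and miR-96 rose. These were the 5 miRNAs past an adjusted p of 0.05 (limma, Benjamini-Hochberg over 157): 2 higher, or 1.27% of those tested, and 3 lower, or 1.91%. At an unadjusted p under 0.05 there were 28, with 15 higher and 13 lower. All 3 MDI values lay above all 3 preadipocyte values for 25 miRNAs (15.9%) and below them for 17 (10.8%). Most miRNAs differed little: the median difference was 0.10, its median size 0.41 against a median standard error (SE) of 0.335, and 96 lay within 0.5 of 0. A difference over 2-fold was seen for 10 miRNAs on the high side and 8 on the low side.

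**Figure D1:**
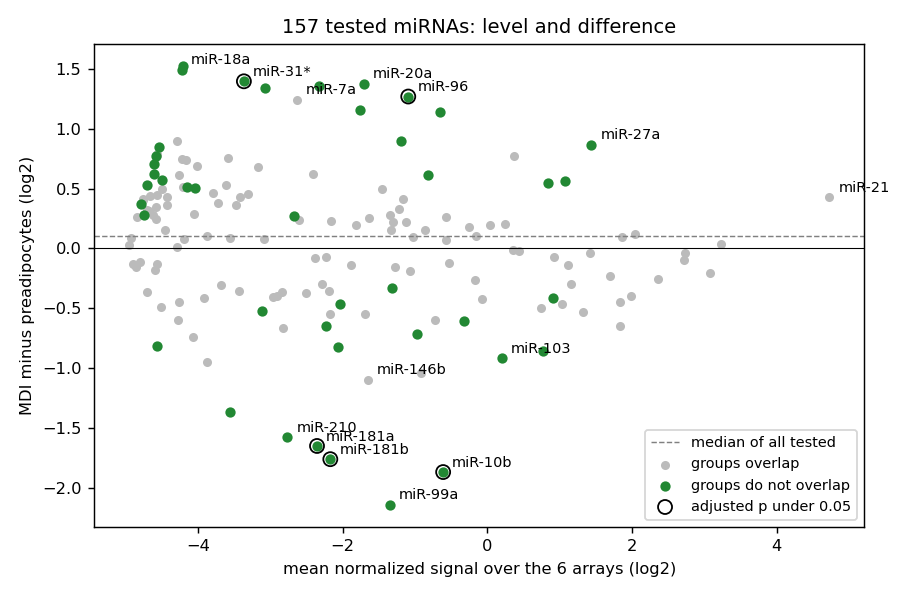
Each point is 1 of 157 tested miRNAs, with its mean normalized signal over the 6 arrays (log2) on the x axis and MDI minus preadipocytes (log2) on the y axis; green marks groups that do not overlap, rings mark limma adjusted p under 0.05, and the dashed line is the median of all tested, 0.10. The 5 ringed miRNAs lie at -1.87 to -1.65 and at 1.27 and 1.40, while several unringed points lie as far from 0.

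miR-10b, which is encoded among the Hoxd genes and is known from cell migration and tumour spread, read 0.41, 0.46 and 0.10 on preadipocyte arrays 1 to 3 and -1.12, -1.47 and -2.05 on MDI arrays 1 to 3. Every MDI array lay below every preadipocyte array, with MDI array 1 nearest to them. The fall was 1.87 on the log2 scale (SE 0.38, 3.66-fold, 95% interval -2.69 to -1.05, limma adjusted p = 0.0263). Its dimmer probe, read separately, differed by -1.75, and on slide 1 alone, where MDI array 1 was set against the 3 preadipocyte arrays, the difference was -1.45. The hairpin lies at chr2:74726070-74726137 on the plus strand (GRCm38.p6), within the annotated spans of Hoxd3 and Hoxd4.

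miR-181a and miR-181b, best known for tuning receptor signalling in lymphocytes, share the seed ACAUUCA and differ at A9U, C10U and A21G (positions from the 5′ end, miR-181a first). miR-181b read -0.97, -0.93 and -1.97 on the preadipocyte arrays and -2.56, -3.14 and -3.46 on the MDI arrays. Preadipocyte array 3 was the lowest of its group and still lay above every MDI array. The fall was 1.76 (SE 0.37, 3.39-fold, limma adjusted p = 0.0263). miR-181a read -1.29, -1.51 and -1.80 before induction and -2.72, -3.20 and -3.63 after, again with no overlap, a fall of 1.65 (SE 0.38, 3.14-fold, limma adjusted p = 0.0277). Both sequences are encoded at 2 loci, chr1:137966455-137966718 and chr2:38852735-38853918 on the plus strand, the second within the span of Nr6a1, so the array cannot say which locus the RNA came from. Their dimmer probes differed by -1.82 for miR-181b and -1.44 for miR-181a, and the differences on slide 1 were -1.27 and -1.19. The passenger strand miR-181a-1* was detected on all 3 preadipocyte arrays and on no MDI array, but at -4.69, -4.87 and the floor in preadipocytes it lay too low for a fold.

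miR-31*, the passenger strand of a hairpin whose main product miR-31 is reported to act against fat cell formation, read -3.86, -3.92 and -4.41 in preadipocytes and -2.89, -2.76 and -2.35 after MDI. It was detected on all 6 arrays and the groups did not overlap. The rise was 1.40 (SE 0.31, 2.64-fold, limma adjusted p = 0.0277), with 1.48 for the dimmer probe and 1.17 on slide 1. Its partner miR-31 read -0.18, -0.29 and -1.64 in preadipocytes and -0.10, -0.57 and -0.65 after MDI, with overlapping groups and a difference of 0.26 (SE 0.41, 95% interval -0.62 to 1.15, limma adjusted p = 0.705). Only preadipocyte array 3 was low for miR-31. The hairpin lies at chr4:88910557-88910662 on the minus strand, within the span of the long noncoding RNA Gm49890.

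miR-96, a miRNA of sensory cells that also represses FOXO1, read -1.75, -1.25 and -2.19 in preadipocytes and -0.44, -0.46 and -0.47 after MDI. The 3 MDI arrays were nearly alike across both slides, and the spread lay in the preadipocytes. The rise was 1.27 (SE 0.30, 2.41-fold, limma adjusted p = 0.0277), with 1.36 for the dimmer probe and 1.29 on slide 1. It is encoded with miR-182 and miR-183 at chr6:30165918-30169737 on the minus strand, within the span of Mirc35hg. miR-182 lay 1.36 higher without passing (limma adjusted p = 0.104), with preadipocyte values of -2.69, -2.45 and -3.88 and MDI values of -1.99, -1.48 and -1.47. The dimmer probe of miR-182 differed by 0.22 and was detected on none of the 6 arrays, while that of miR-183 differed by 0.54. miR-183 overlapped between the groups, at -0.93, -0.57 and -2.64 against -0.64, -1.12 and -1.14 (difference 0.41, limma adjusted p = 0.609), and without preadipocyte array 3 its difference was -0.22.

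The sign of these 5 differences was the same in all 28 settings run. Many of those settings could not alter a difference, among them other detection filters, the replicate block and leaving out a lithium array. The calls changed more. None of the 5 passed with slide as a block (limma adjusted p 0.135 to 0.250) or with normexp background correction (0.522 to 0.916). Within slide 1, which leaves 1 MDI array, only the differences given above are read. Leaving out any 1 of preadipocyte arrays 1 and 2 and MDI arrays 2 and 3 left no call at all. Both slide fits rest on MDI array 1 as the only MDI array set against the preadipocytes, and take it to vary like the arrays of the other groups. Without preadipocyte array 3 the calls were 0 higher and 5 lower, without MDI array 1 they were 1 and 3, without lithium array 3 they were 0 and 2, without the second lithium plus MDI array 7 and 5, and without the third 11 and 7. The scaling sets the balance of the calls: 1 higher and 47 lower when the percentile was taken over all mouse probes, 1 and 61 with unscaled arrays, where the median of all tested miRNAs was -0.64 and -0.70, against 4 and 5 with quantile normalization. With the all-probe percentile and with unscaled arrays the 3 miRNAs that fell passed, but miR-31* and miR-96 did not. There miR-31* lay at 0.59 and 0.50 (limma adjusted p 0.182 and 0.159). miR-96 lay at 0.46 and 0.37 (limma adjusted p 0.258 and 0.22). After normexp the differences of miR-31* and miR-96 were 0.16 and 0.65.

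**Figure D2:**
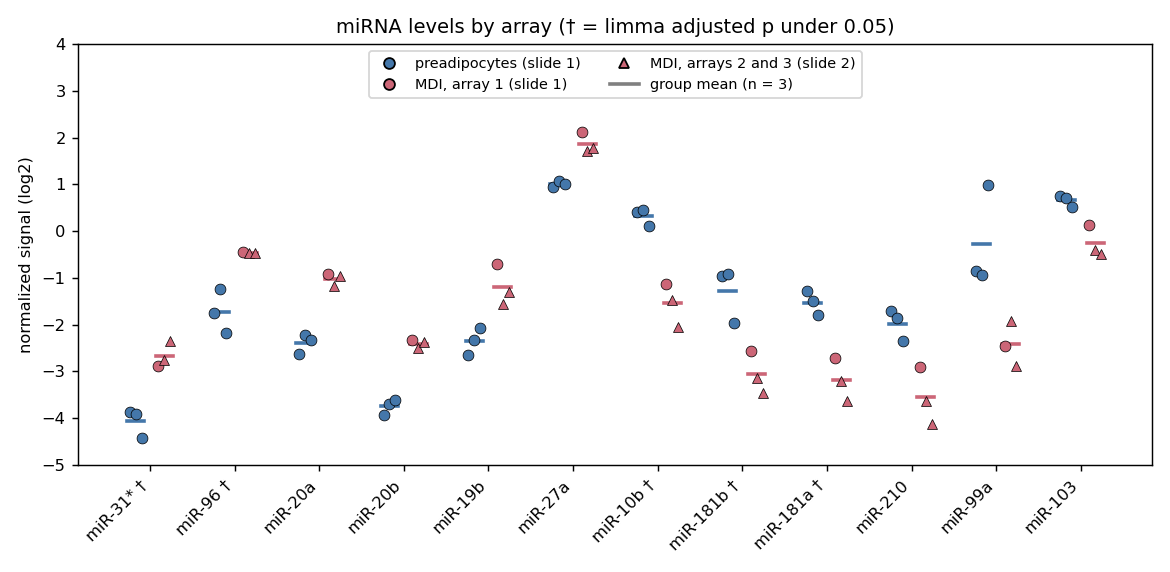
Normalized log2 signal of 12 miRNAs on each of the 6 arrays, with preadipocytes in blue, MDI in red, triangles for the 2 MDI arrays on slide 2, bars for group means (n = 3) and a dagger for limma adjusted p under 0.05. The 12 were picked by hand, and the groups do not overlap for any of them, as for 42 of all 157 tested miRNAs. The preadipocyte values of miR-99a spread from -0.94 to 0.98.

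Further large differences missed the threshold. miR-99a, which represses the growth kinase mTOR and has the largest difference of all tested miRNAs, read -0.85, -0.94 and 0.98 in preadipocytes and -2.45, -1.92 and -2.88 after MDI. The groups were apart, yet preadipocyte array 3 lay far above its own group, and the difference of -2.14 had an SE of 0.67 (limma adjusted p = 0.083). It is encoded next to let-7c at chr16:77598936-77599750 on the plus strand, and let-7c differed by -0.86 (limma adjusted p = 0.290), also with its highest value, 2.07, on preadipocyte array 3. Without that array the 2 differences were -1.52 and -0.42. miR-210, the miRNA induced by low oxygen, read -1.71, -1.86 and -2.35 against -2.91, -3.63 and -4.12, a difference of -1.58 (SE 0.44, limma adjusted p = 0.0614) that was -0.93 on slide 1. miR-155, made by activated immune cells and reported to inhibit fat cell formation, read -0.15, 0.30 and -1.34 against -1.49, -1.53 and -1.29 (difference -1.04, limma adjusted p = 0.155). Preadipocyte array 3 alone overlapped the MDI arrays, and without it the difference was -1.51 (limma adjusted p = 0.0231), while without preadipocyte array 2 it was -0.69 (limma adjusted p = 0.419). miR-146b, a brake on inflammatory signalling, differed by -1.10 with an SE of 0.83, with the highest of its 6 values on preadipocyte array 3 and the lowest on MDI array 1. It was -0.34 without the former and -0.59 without the latter.

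miR-27a, which represses PPARG, was among the steadiest differences on the high side. It read 0.94, 1.06 and 1.01 in preadipocytes and 2.12, 1.72 and 1.77 after MDI, so the groups lay well apart. The difference was 0.87 (SE 0.23, 95% interval 0.36 to 1.37, limma adjusted p = 0.0595), with 0.99 for the dimmer probe and 1.12 on slide 1; it was -0.03 with unscaled arrays. miR-7a lay 1.24 higher with preadipocyte values from -4.91 to -1.98 and an SE of 0.80. Without preadipocyte array 3 its difference was 0.42. The dimmer probe of miR-7a differed by 0.03 and was detected on no MDI array. miR-196a, encoded among the Hox genes like miR-10b, had all 3 preadipocyte values at the floor (detected on 1 of 3 arrays) and MDI values of -4.10, -2.85 and -3.38 (difference 1.53 against the floor, limma adjusted p = 0.203). With the preadipocyte values at the floor, the difference of miR-196a could not be negative, so no contrast with miR-10b is read. Its lowest MDI value was on slide 1, and after normexp its difference was -0.017.

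The cluster of miR-17 to miR-92a and its X-linked copy, which are induced by MYC and known to drive the cell cycle, had 6 tested members of 15 array entries, and all 6 were higher and apart, where 15.9% of all tested miRNAs were. Of the 6, miR-18a and miR-17* lay at or near the floor in preadipocytes, and with detection required on all 6 arrays 4 members were tested and all 4 were higher. None passed the test: the smallest limma adjusted p, 0.0595, was that of miR-18a, whose preadipocyte values were at the floor, and the next was 0.083. Their median difference was 1.25, against 0.10 over all tested miRNAs. The cluster lies at chr14:115043671-115044506 on the plus strand and the copy at chrX:52741693-52742567 on the minus strand. miR-19b and miR-92a are encoded at both loci, so they cannot be assigned to 1 of them. miR-20a, from chromosome 14, read -2.63, -2.23 and -2.33 in preadipocytes and -0.92, -1.17 and -0.95 after MDI (difference 1.38, limma adjusted p = 0.083). miR-20b, from the X chromosome, read -3.94, -3.69 and -3.61 against -2.34, -2.51 and -2.37 (difference 1.34, limma adjusted p = 0.083). The probe for a member of each locus thus read higher on every MDI array. These 2 sequences differ at 2 bases, and whether either probe also reads the other miRNA was not tested. miR-19b differed by 1.16 and miR-92a by 1.14. miR-17* was tested only because of its signal on the lithium arrays and was detected on 2 of 3 preadipocyte and 1 of 3 MDI arrays, so its difference of 0.62, which was 0.36 without MDI array 1, lies near the floor and is not read further. miR-18a had its 3 preadipocyte values at the floor (detected on 1 of 3 arrays) and MDI values of -3.30, -3.78 and -3.34, and its difference of 1.49 was taken against the floor. The dimmer probe of miR-18a differed by 0.16 and was detected on none of the 6 arrays. With the all-probe percentile and with unscaled arrays, 5 of the 6 were higher (medians 0.44 and 0.35, or 1.08 and 1.05 above all tested), and with normexp 4 of 6 (median 0.27). On slide 1 all 6 were higher, with a median of 1.48.

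A related cluster, miR-106b-25 in the Mcm7 gene (chr5:138165321-138165818, minus strand), had 3 of 3 tested members higher and none past the test, with a median of 0.61, which turned to -0.20 with the all-probe percentile and -0.29 with unscaled arrays. miR-93 read -1.58, -1.52 and -1.83 against -0.84, -0.82 and -0.58 (difference 0.90, limma adjusted p = 0.229). The groups were apart for miR-93 and for miR-25 (difference 0.61), and they overlapped for miR-106b (0.33). By seed, the AAAGUGC family had 4 members tested from 3 loci, and all 4 were higher, with a median of 1.12, although miR-93 and miR-106b lay at -0.0053 and -0.57 with unscaled arrays. The AUUGCAC family, miR-92a and miR-25, had both members higher and apart, with miR-25 at -0.29 with unscaled arrays. Of all tested miRNAs, 15.9% were higher and apart. Every member of both seed families was already counted in the clusters above, so these families are not further groups.

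**Figure D3:**
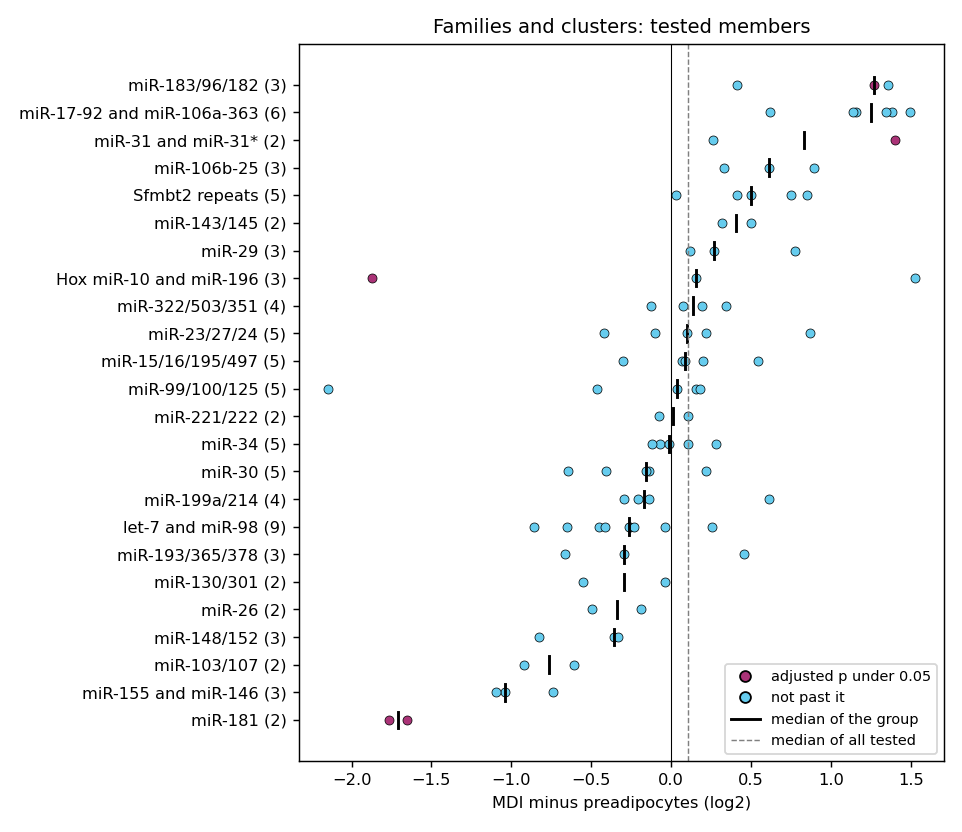
Each point is a tested member of a family or cluster (number tested in brackets) at its log2 difference, MDI minus preadipocytes, in purple where limma adjusted p was under 0.05; black bars are medians of the group and the dashed line is the median of all tested, 0.10. The members of the cluster of miR-17 to miR-92a and its copy all lie right of 0.5 and both miR-181 members left of -1.5, while the Hox group and that of miR-99, miR-100 and miR-125 are split.

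Other families lay on the low side without a call. miR-103 and miR-107, which sit in introns of the pantothenate kinase genes and are reported to reduce insulin sensitivity, were both lower and apart under the main scaling. miR-103 read 0.75, 0.71 and 0.52 against 0.12, -0.41 and -0.50 (difference -0.92, limma adjusted p = 0.320), and miR-107 differed by -0.61. The fit takes its spread from all 12 arrays, which gave miR-103 an SE of 0.49, and with the 6 arrays alone its adjusted p was 0.0671. The miR-155 and miR-146 list had 3 of 3 lower (median -1.04) and the miR-148 and miR-152 family 3 of 3 lower (median -0.36), with miR-148a at -0.83 (limma adjusted p = 0.296). Both medians stayed below 0 under every scaling run. In the let-7 family, which represses growth genes, 8 of 9 members were lower with a median of -0.26, and 2 were apart on the low side, as were 10.8% of all tested; after normexp 6 of 9 were lower. The miR-30 family, described as favouring the fat cell fate, had 4 of 5 lower (median -0.16), with miR-30d at -0.65 (limma adjusted p = 0.203). miR-29, which represses collagens, had 3 of 3 higher (median 0.27), but 0 of 3 with the all-probe percentile or with unscaled arrays.

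Of 13 tested miRNAs reported to promote fat cell formation, 4 were higher and 9 lower (median -0.50), and of 12 reported to inhibit it, 5 were higher and 7 lower (median -0.06); none of either list passed. The inhibiting list's median was 0.06 with quantile normalization, 0.13 from the authors' deposited value table and 0.03 after normexp. It was -0.87 with the all-probe percentile and -0.96 with unscaled arrays, so its side depends on the processing. Repeat-derived miRNAs of the Sfmbt2 group, taken by name, had 5 of 5 tested higher (median 0.50), at levels near the floor, but 3 of 5 with the all-probe percentile, 1 of 5 with unscaled arrays and 0 of 5 after normexp. Their median was 0.098 without MDI array 1 and 1.06 on slide 1, where that array alone stands for MDI. Of the large imprinted Dlk1-Dio3 cluster, 1 of 70 on the array, miR-494, was tested, at a difference of 0.28. Passenger strands as a class had 13 of 17 higher (median 0.44), but 3 of 17 with the all-probe percentile and 2 of 17 after normexp.

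Sequence families did not always lie on 1 side. Of the tested miRNAs, 129 of 157 were matched to a RefSeq sequence, by name or by hairpin arm, and 60 of them shared a seed with another in 21 families. In 14 families all members had the same sign and in 7 they did not. Hairpins with neighbours within 10 kb gave 24 clusters with 2 or more tested members, 14 of them of 1 sign. These clusters are not separate: miR-181a, miR-181b, miR-19b, miR-92a and miR-29b each counted in 2 clusters of 1 sign. Over all tested miRNAs, 89 were higher and 68 lower. Of 18 hairpins with both strands tested, 10 had strands of the same sign.

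Ratios were also taken within an array, between miRNAs of 1 family, 1 cluster or 1 hairpin. Dividing an array by a constant cannot alter them above the floor. The pairs were chosen after their values were seen. A ratio holds the brightness of each probe as well, so only its shift between groups is read. miR-99a and miR-100 differ at U16A (miR-99a first, from the 5′ end), and their log2 ratio went from 0.99, 1.00 and 2.61 to 0.05, 0.17 and -0.66, a shift of -1.68, also apart. miR-100 differed by -0.46 and miR-99b by 0.16. The dimmer probes differed by -1.99 for miR-99a, -0.0053 for miR-100 and 0.27 for miR-99b. Whether these probes also read each other's miRNAs was not tested. miR-27a against its cluster partner miR-23a shifted by 0.97, apart, while against miR-27b (C19U) it shifted by 0.65 with overlap, and miR-27b differed by 0.22. miR-10b and miR-10a differ by 1 base outside the seed, A12U, but their ratio is not read: miR-10a lay near the floor at a difference of 0.15 and was detected on 1 of 3 MDI arrays.

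The ratio of miR-20a to miR-20b (U1C and U10C), from separate chromosomes, differed by less than its spread: it was 1.35 ± 0.10 (SD, n = 3) in preadipocytes and 1.39 ± 0.04 after MDI, a shift of 0.04. That of miR-181b to miR-181a shifted by -0.11 and that of miR-96 to miR-182 by -0.09. miR-31* against miR-31 shifted by 1.14 with overlap, and miR-103 against miR-107 (G22C) by -0.31 without. With 3 arrays a group the exact two-sided permutation test cannot go below p = 0.1, which the 5 of 12 ratios that were apart, that of miR-10b to miR-10a among them, reached (0.24 after Benjamini-Hochberg adjustment over 12), so none passes 0.05.

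**Figure D4:**
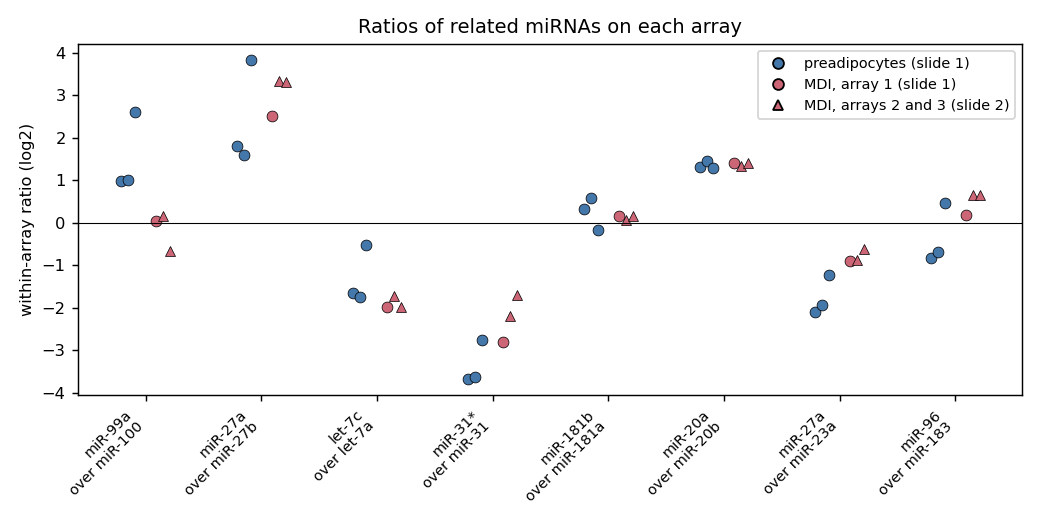
Log2 ratio of 2 miRNAs on the same array, for 8 pairs, with preadipocytes in blue, MDI in red and triangles for the MDI arrays on slide 2. The groups separate for miR-99a over miR-100 and miR-27a over miR-23a, and miR-20a over miR-20b stays between 1.29 and 1.47 on all 6 arrays.

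Under the main scaling, the probes with the strongest signal differed little between the groups. miR-21, a growth-promoting miRNA of many cultured lines, read 4.44, 4.99 and 4.10 in preadipocytes and 5.06, 4.91 and 4.85 after MDI, a difference of 0.43 (95% interval -0.26 to 1.12). miR-125b-5p differed by 0.04 (-0.63 to 0.71), let-7f by -0.04 (-0.65 to 0.58), miR-23a by -0.10 and miR-199a-3p, a fibroblast miRNA, by -0.21. Their groups all overlapped. The dimmer probe of miR-21 differed by 0.78. With unscaled arrays miR-21 lay at -0.47, miR-125b-5p at -0.86, let-7f at -0.94, miR-23a at -1 and miR-199a-3p at -1.11. The median of all tested miRNAs was -0.70 there. Of these, miR-23a and miR-125b-5p passed in that setting (limma adjusted p 0.00751 and 0.0368). At the dim end, 6 miRNAs were detected on all 3 preadipocyte arrays and on no MDI array, and none the other way. They were miR-181a-1*, miR-186, miR-188-5p, miR-22*, miR-328 and miR-582-5p, of which miR-582-5p read -4.29, -3.83 and -4.34 against 3 values at the floor (at least 1.14-fold) and miR-188-5p was at least 1.05-fold higher in preadipocytes. The preadipocyte arrays were also the brighter ones before scaling, and the part of that brightness in these detection counts was not tested.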

How the data were processed

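The members and lists were chosen with earlier results of these data known. The intensities deposited are per-spot signals of Agilent Feature Extraction less their background (version 10.5.1.1 per the file headers, 9.5.3 per the submitters' processing notes), not scaled between arrays. The authors also deposited a value table read here as log2, with column medians from 0.00175 to 0.0958; its steps near background are unknown and it served as an alternative.

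Outlier spots were left out and the other spots of a probe averaged. A probe was detected when most spots were well above background. Scaled values were set to at least the 5th percentile of detected ones, where 11.0% of the 6 arrays' tested values lay, and logged. The brightest probe stood for a miRNA, tested if detected on all 3 arrays of any of the 4 groups (23 entered through lithium arrays only). The fit used limma 3.58.1 in R 4.3.3 on 12 arrays as 4 group means, two-sided, without a block. It was also run on simulated data, only to check the code. The simulated shifts were larger than any difference seen here and held no slide effect, so they cannot tell how the fit performs on differences of these sizes. A bound sets the bright group against the lowest detected signal of each dim array. Figures used matplotlib 3.10.9. Sequences and coordinates are RefSeq's; arms were matched by naming convention, and host genes are overlaps of annotated spans without regard to strand.

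Named are all called miRNAs, the 8 highest and 8 lowest differences among those detected on all 6 arrays, those detected in 1 group only, the 5 brightest, each list's brightest and most different member, and lists of at most 3; others (such as miR-99b, miR-100, miR-27b, miR-17* and miR-205) were chosen after their values were seen. The alternatives varied scaling, background, floor, filter, probe summary, value source, arrays, slide and replicate blocks.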

Additional observations from a re-analysis of the deposited data

How the results depend on the processing

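Against 2 miRNAs higher and 3 lower in the fit reported, the calls were 4 and 5 with quantile normalization, 1 and 47 with the 75th percentile taken over all mouse probes, 1 and 61 without scaling, and 0 and 0 with normexp (5 at an unadjusted p under 0.05). They were 7 and 8 from the authors' deposited table, 6 and 5 in the fit of the 6 arrays alone and 12 and 26 without the 3 arrays known from earlier results to stand apart (preadipocyte 3, lithium 1 and lithium plus MDI 3). With slide as a fixed block they were 0 and 0 (29 at an unadjusted p under 0.05), and within slide 1 they were 11 and 0, of which 9 had all 3 preadipocyte values at the floor. Leaving out each of the 12 arrays in turn gave 0 to 11 higher and 0 to 7 lower. The counts were within 1.5 times of those reported with a floor at the 1st percentile, other detection filters and the mean over probes; the run without a filter left out miRNAs at the floor on all 12 arrays and tested 215. Same-numbered arrays of the 2 groups deviated from their group means with correlations of 0.473, -0.369 and 0.114. The deviations within a group depend on each other, so these values cannot settle whether the numbers pair the samples. A fit with the replicate number as a block gave 2 and 3, for the same 5 miRNAs.

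Of the 45 miRNAs whose values are given, those with a turned sign were as follows, none of them called in the fit reported; the cause was not tested. With quantile normalization, miR-10a lay at -0.33. With the percentile over all mouse probes, miR-106b lay at -0.48, miR-10a at -0.66, miR-183 at -0.40, miR-21 at -0.38, miR-25 at -0.20, miR-31 at -0.55, miR-494 at -0.53, miR-125b-5p at -0.77, miR-99b at -0.66, miR-27b at -0.59 and miR-17* at -0.0083, where all tested miRNAs had a median of -0.64. Without scaling, where that median was -0.70, they lay at -0.57 for miR-106b, -0.56 for miR-10a, -0.49 for miR-183, -0.47 for miR-21, -0.29 for miR-25, -0.033 for miR-27a, -0.64 for miR-31, -0.62 for miR-494, -0.0053 for miR-93, -0.86 for miR-125b-5p (past the threshold there), -0.75 for miR-99b, -0.68 for miR-27b and -0.087 for miR-17*. After normexp, let-7f lay at 0.23, miR-106b at -0.022, miR-10a at -0.33, miR-18a at -0.082, miR-196a at -0.017, miR-23a at 0.14, miR-199a-3p at 0.055 and miR-17* at -0.30. The lower floor put miR-22* at 0.041, the mean over probes put let-7f at 0.070, and the authors' deposited table put let-7f at 0.063 and miR-10a at -0.33. On slide 1, and with slide as a block, miR-10a lay at -0.20, miR-186 at 0.12 and miR-23a at 0.26. Without the 3 arrays that stood apart, let-7f lay at 0.0033, miR-183 at -0.22, miR-31 at -0.21, miR-494 at -0.030, miR-99b at -0.25 and miR-27b at -0.49. Leaving out 1 array at a time, the values ranged from -0.21 to 0.16 for let-7f, from -0.36 to 0.043 for miR-23a, from -0.072 to 0.12 for miR-125b-5p, from -0.22 to 0.82 for miR-183, from -0.21 to 0.52 for miR-31, from -0.11 to 0.93 for miR-494, from -0.25 to 0.44 for miR-99b, from -0.49 to 0.65 for miR-27b and from -0.44 to 0.063 for miR-199a-3p.

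No value here has a counting depth; the number of arrays limits the precision, and for dim miRNAs the signal over background does too, since values at the floor have no order.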
